A study of Mus musculus with 20 samples.

Results

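Hnf4a, Nr5a2, Foxa1, Foxa2, Foxa3, Cebpa, Cebpb, Onecut1 and Prox1 encode transcription factors that set up and hold the gene program of hepatocytes, the main cell type of the liver. They were taken from the table of liver RNA by their gene symbols, so that 9 of its 45306 genes are described here. The question was whether their transcripts changed with cold exposure, with knockout of Sirt2, or with both. The livers came from C57BL/6 mice of 4 groups with 5 libraries each. Control mice were wild type and were kept at room temperature, and CE mice were wild type and were exposed to 4 °C for 3 h per day over 3 weeks. Sirt2-/- mice carried a whole-body knockout made by injecting a ribonucleoprotein against exons 5 to 7 of Sirt2 into fertilized eggs, and they were kept at room temperature. Sirt2-/-/CE mice carried the same knockout and received the same cold exposure. The mice were 5 weeks old when they were put into groups. The number of founder animals behind the line is not given in the sources used here. The labels list 20 separate samples and name no animals, so each library was taken as 1 mouse, and the p-values measure the spread between these libraries.

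Hepatocyte identity depends on a small set of factors that bind the regulatory regions of each other's genes as well as those of genes for plasma proteins, bile acid synthesis and glucose metabolism. Nuclear receptors such as Hnf4a act together with forkhead factors of the Foxa family, which can open compacted chromatin, with C/EBP factors and with the cut-homeodomain factor Onecut1, also called HNF6. C/EBPβ is known for its rapid induction in stress and regeneration, while C/EBPα is known for keeping hepatocytes quiescent and metabolically active. As the tissue was whole liver, fewer cells of a type and less RNA per cell cannot be told apart in any value below.

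Counts per library ran from 35499796 to 53917339, and 15616 genes passed the filter on low counts, the 9 factors among them. Sirt2 itself was at 41.3 to 44.5 CPM (read counts scaled to the size of each library) in Control and 40.2 to 56.2 CPM in CE, against 16.9 to 27.5 CPM in Sirt2-/- and 18.97 to 27.5 CPM in Sirt2-/-/CE, without overlap between the genotypes. Of 6 hepatocyte markers in the table, none was near 0, and their summed level was 82210 to 160300 CPM over all libraries. A clock score, which subtracts the mean log2 CPM of Arntl, Clock and Npas2 from that of Ciart, Dbp, Nr1d2, Per3 and Tef, set 4 libraries apart. CE replicate 9, Sirt2-/- replicates 14 and 15 and Sirt2-/-/CE replicate 19 lay between -3.21 and -1.25, and the other 16 libraries between 2.46 and 6.64. No Control library was among the 4. Among the other 16, the Control libraries lay at 4.61 to 6.64, above all Sirt2-/-/CE libraries at 2.46 to 4.14. The clock score and the groups thus cannot be fully told apart, with or without the 4. Values without these 4 libraries are given where they matter.

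No factor passed the threshold, an adjusted p under 0.05 in edgeR's quasi-likelihood test with Benjamini-Hochberg adjustment, in any comparison. For CE against Control, 0 of the 9 factors were called, where 0.0064% of all tested genes were. For Sirt2-/- against Control, 0 of 9 were called, where 0.89% of all tested genes were. In Sirt2-/-/CE against Sirt2-/- the share over all genes was 0%, and in Sirt2-/-/CE against CE it was 0.0128%, with 0 of 9 factors called in each. The interaction of genotype and CE gave 0 of 9 factors and 0% of all genes. In edgeR, 0 factors were under an unadjusted p of 0.05 in each of these 5 comparisons, where 6.09% to 14.9% of all tested genes were, and DESeq2 gave 0 under either threshold. With the clock score as a covariate in edgeR, 2 factors were under it for CE and 1 for Sirt2-/- against Control and 1 for the interaction, against 10.8%, 7.27% and 5.76% of all tested genes, and 0 were called. limma voom with quality weights called 0 factors and had 2 under an unadjusted p of 0.05 for CE and 2 for Sirt2-/- against Control, where 20.8% and 23.1% of all tested genes were. It had 1 for Sirt2-/-/CE against CE and 1 for the interaction, against 7.97% and 13.3% of all tested genes, and 0 for Sirt2-/-/CE against Sirt2-/-, against 6.44%. There was also no factor whose 5 values in one group lay wholly above or below the 5 of the other group. Over all genes such groups made up 3.04% for CE against Control, 3.61% for Sirt2-/- against Control, 0.743% for Sirt2-/-/CE against Sirt2-/- and 1.22% for Sirt2-/-/CE against CE.

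The median log2 fold change of the 9 factors was 0.05 for CE against Control, with 5 factors higher and 4 lower, and the median of all tested genes was -0.01. For Sirt2-/- against Control the median of the factors was -0.23, with 2 higher and 7 lower, and that of all genes was 0.02. Scaling moved this count, with 3 higher and a median of -0.09 by library size only, where all genes had 0.16, and 4 higher and a median of -0.07 in log2 FPKM, where all genes had 0.08. For Sirt2-/-/CE against Sirt2-/- it was 0.12, with 5 higher and 4 lower, and that of all genes was 0.01. For Sirt2-/-/CE against CE it was -0.17, with 1 higher and 8 lower, against 0.02 over all genes. It was -0.06 with 4 higher by library size only, where all genes had 0.11, and -0.02 with 3 higher in log2 FPKM, where all genes had 0.05. None of these single differences passed the test, as the plot of fold changes with their intervals shows.

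**Figure D1:**
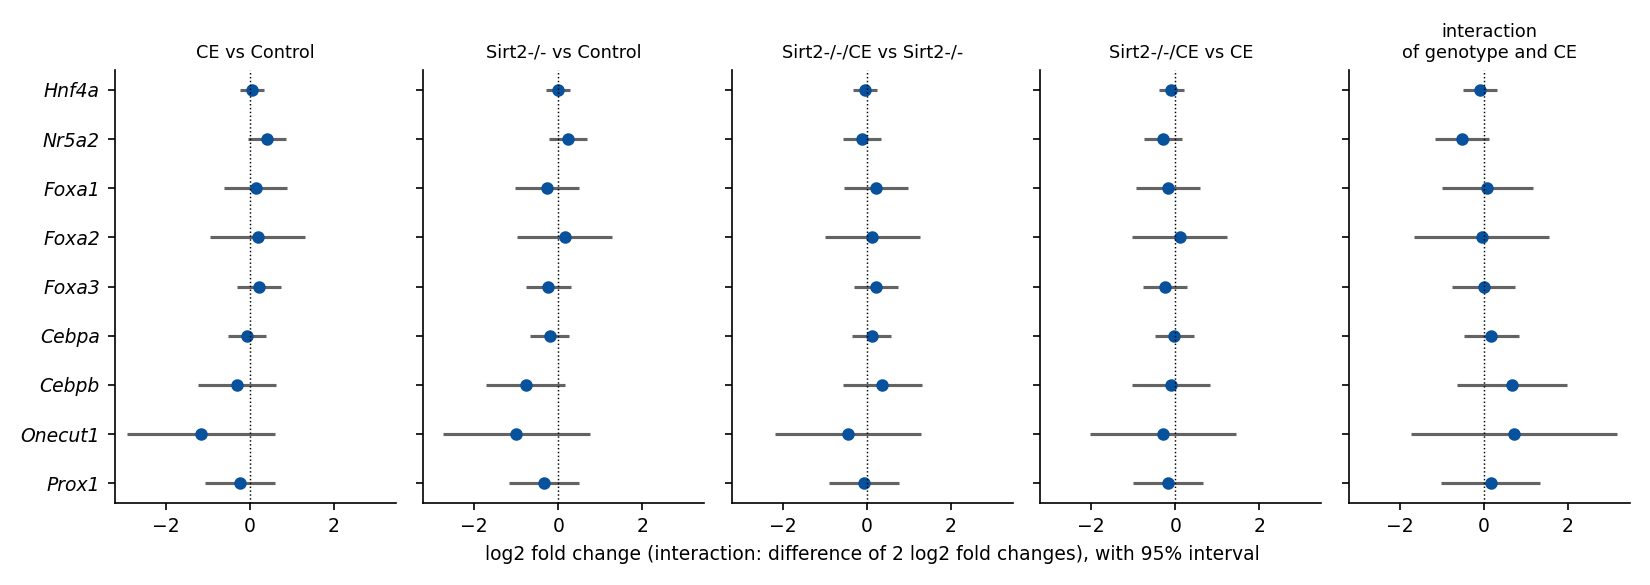
Log2 fold change of each factor (point) with its 95% interval (line) from edgeR, for the 4 pairs of groups and for the interaction, which is a difference of 2 log2 fold changes. Every interval includes 0, and the intervals of Onecut1 and Foxa2 are wider than those of Hnf4a.

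The levels per gene length, in FPKM (fragments scaled to the length of a gene and the depth of a library), spanned a wide range. Hnf4a had a mean of 151.6 ± 23.7 FPKM (SD, n = 20), above 97.3% of the tested genes, and Cebpa one of 80.9 ± 17.3 FPKM. Foxa3 followed at 25.2 ± 6.8 FPKM. The order Hnf4a, Cebpa, Foxa3 held in 20 of 20 livers at each step. Foxa3 was above Prox1, which had 12 ± 5.27 FPKM, in 19 of 20 livers. The next 3 factors did not differ beyond their spread, with 11.53 ± 6.92 FPKM for Foxa2, 10.95 ± 2.84 FPKM for Nr5a2 and 9.89 ± 10.03 FPKM for Onecut1. Prox1 was above Foxa2 in 11 of 20 livers, Foxa2 above Nr5a2 in 9 and Nr5a2 above Onecut1 in 12. Foxa1 had 4.71 ± 1.9 FPKM, below Onecut1 in 11 of 20 livers. Cebpb was lowest at 2.92 ± 1.5 FPKM and below Foxa1 in 17 of 20 livers.

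**Figure D2:**
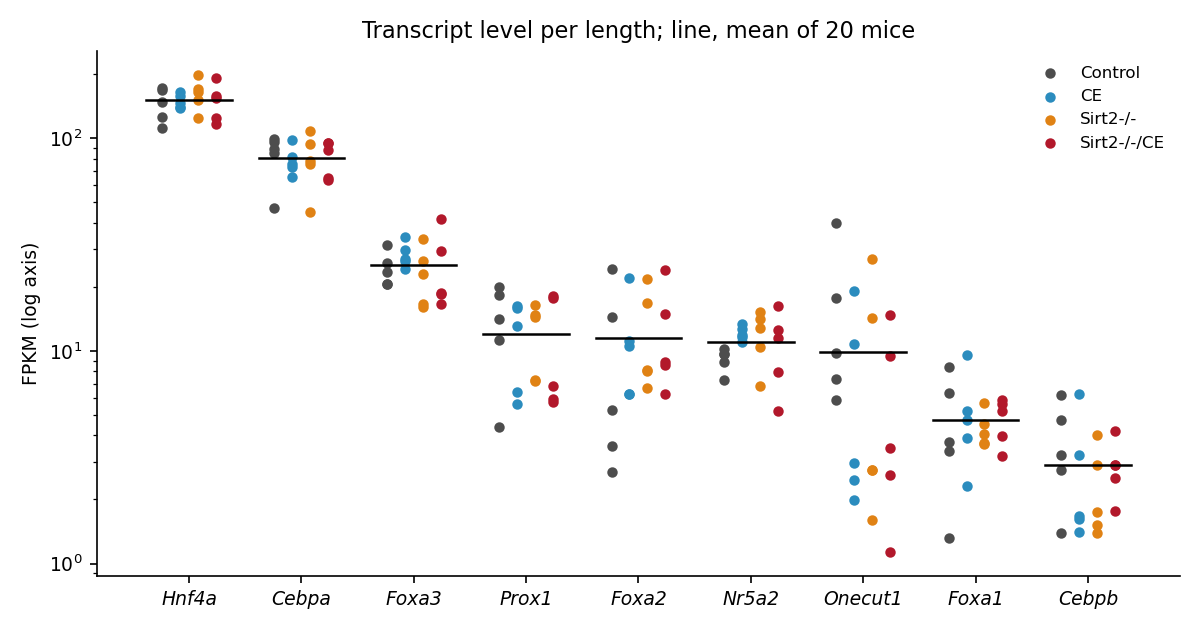
FPKM of each factor on a log axis in every liver, coloured by group, with the mean of the 20 livers as a line. The means of Hnf4a, Cebpa and Foxa3 lie above the rest, and Onecut1 spreads over the widest range. Single livers of Foxa3 overlap those of Onecut1, Foxa2 and Prox1.

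The factors differed widely in how much they varied from liver to liver. The coefficient of variation of the CPM over the 20 livers was 12.7% for Hnf4a and 104.5% for Onecut1, at the 5.0 and 96.4 percentiles of all tested genes. The median was 41.8% over the 9 factors and 30.7% over all tested genes. Between-group differences took a median of 7.7% of the variation of the factors in log2 CPM and 18.6% of that of all tested genes, where the groups hold 15.8% of the degrees of freedom.

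Hnf4a, the orphan nuclear receptor that drives a large part of the hepatocyte program, is on chromosome 2 (163506808 to 163572910, forward strand) of GRCm38. In Control it was at 654, 814, 827, 617 and 524 CPM (replicates 1 to 5), and in CE at 724, 674, 767, 740 and 662 CPM (replicates 6 to 10). In Sirt2-/- it was at 665, 716, 555, 701 and 790 CPM (replicates 11 to 15), and in Sirt2-/-/CE at 581, 807, 661, 701 and 586 CPM (replicates 16 to 20). The groups overlapped throughout, and both the lowest and the highest liver belonged to Control. The log2 fold change was 0.05 (SE 0.14, adjusted p = 0.951 by edgeR) for CE against Control. It was -0.00 (SE 0.14, 95% interval -0.30 to 0.29, adjusted p = 0.995) for Sirt2-/- against Control, and its sign depended on the scaling. Hnf4aos, an antisense gene that shares 0 exonic bases with Hnf4a, held 0.245% to 0.898% of the counts of both.

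Nr5a2, the nuclear receptor also called LRH-1 that acts on genes of bile acid and cholesterol handling, is on chromosome 1 (136842571 to 136960448, reverse strand). It was at 44.3, 43.7, 50.5, 52.5 and 35.6 CPM in Control and at 56.2, 58.7, 70.1, 51.4 and 64.7 CPM in CE. Among these 2 groups, 1 CE liver at 51.4 CPM lay below the highest Control liver at 52.5 CPM, and the other CE livers lay above all of Control. That CE liver is not among the 16 libraries of the higher clock scores, where 4.75% of all tested genes had groups that did not overlap between CE and Control. Sirt2-/- livers were at 48.0, 55.5, 71.9, 31.3 and 58.6 CPM and Sirt2-/-/CE livers at 28.2, 54.2, 70.9, 53.3 and 39.4 CPM, so both knockout groups spanned the range of Control and CE. The log2 fold change for CE against Control was 0.41 (SE 0.22, 95% interval -0.04 to 0.86, adjusted p = 0.53 by edgeR), and over all alternatives it stayed between 0.33 and 0.49 with adjusted p from 0.12 to 0.727. For Sirt2-/- against Control it was 0.23 (SE 0.22, adjusted p = 0.672), from 0.09 without Sirt2-/- replicate 13 to 0.37 by library size only. For Sirt2-/-/CE against CE it was -0.29 (SE 0.22, adjusted p = 0.935), from -0.46 to -0.075 over all alternatives. The interaction was -0.52 (SE 0.31, adjusted p = 0.68), so that a difference in the response to cold between genotypes was not shown.

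Foxa1, Foxa2 and Foxa3 are the liver's forkhead pioneer factors. Foxa1 lies on chromosome 12 from 57540628 to 57546916, Foxa2 on chromosome 2 from 148042877 to 148046969 and Foxa3 on chromosome 7 from 19013284 to 19023538, all on the reverse strand. Of their summed FPKM, Foxa3 made up 62.3% ± 13.3 (SD, n = 20), Foxa2 26.4% ± 11.5 and Foxa1 11.3% ± 3.0. Foxa3 was the most abundant of them in 18 livers and Foxa2 in the other 2.

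Foxa1 was at 12.1, 11.7, 4.74, 30.0 and 21.8 CPM in Control and at 32.0, 18.4, 8.88, 15.5 and 13.5 CPM in CE. It was at 14.5, 11.3, 12.03, 17.5 and 11.8 CPM in Sirt2-/- and at 11.7, 17.2, 12.6, 16.9 and 20.2 CPM in Sirt2-/-/CE. The wild-type groups held both the lowest and the highest livers, and the knockout groups lay within them. Its log2 fold change was 0.14 (SE 0.36, adjusted p = 0.951 by edgeR) for CE against Control and -0.26 (SE 0.36, adjusted p = 0.802) for Sirt2-/- against Control. Alternatives placed the former between -0.19, without CE replicate 6, and 0.49, without Control replicate 4, and the latter between -0.50, without Control replicate 3, and 0.09, without Control replicate 4.

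Foxa2 was at 7.15, 10.8, 6.0, 51.8 and 30.8 CPM in Control and at 46.1, 24.0, 14.9, 23.0 and 13.3 CPM in CE. It was at 16.3, 12.6, 16.04, 43.2 and 30.4 CPM in Sirt2-/- and at 19.96, 17.1, 12.04, 28.8 and 52.3 CPM in Sirt2-/-/CE. Each group thus had at least 1 liver above 40 CPM, and the 3 lowest livers of all were Control livers. Its highest liver was 8.73 times its lowest. The log2 fold change was 0.19 (SE 0.54, adjusted p = 0.956 by edgeR) for CE against Control, 0.15 (SE 0.54, adjusted p = 0.931) for Sirt2-/- against Control and 0.10 (SE 0.54, adjusted p = 0.988) for Sirt2-/-/CE against CE. All 3 of these changed sign under the clock score as a covariate. That for CE lay between -0.18, without CE replicate 6, and 0.98, with limma voom, and that for Sirt2-/- between -0.51, with the covariate, and 0.79, without Control replicate 4.

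Foxa3 ranged from 44.9 to 71.5 CPM in Control, 53.4 to 72.0 CPM in CE, 30.4 to 65.6 CPM in Sirt2-/- and 34.5 to 96.3 CPM in Sirt2-/-/CE. The highest value, in Sirt2-/-/CE replicate 16, stood well above the next liver of its group at 57.5 CPM. Its log2 fold change was 0.23 (SE 0.25, adjusted p = 0.821 by edgeR) for CE against Control and -0.23 (SE 0.25, adjusted p = 0.723) for Sirt2-/- against Control. Without Control replicate 4 the former was 0.35, and over all alternatives the latter ran from -0.40 without Sirt2-/- replicate 14 to -0.09 by library size only. The log2 ratio of Foxa2 to Foxa3 in CPM was -1.83 ± 1.22 (SD, n = 5) in Control, -1.51 ± 0.73 in CE, -1.05 ± 0.80 in Sirt2-/- and -1.11 ± 1.11 in Sirt2-/-/CE. In exact permutation tests, two-sided and adjusted over 8 comparisons of ratios, its differences between groups had adjusted p = 0.844 or 0.936, where the smallest p that 5 against 5 allows is 0.0079 before adjustment.

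Cebpa, on chromosome 7 (35119293 to 35121928, forward strand), was at 264, 244, 139.7, 285 and 253 CPM in Control. In CE it was at 209, 240, 208, 199 and 282 CPM, in Sirt2-/- at 119, 200, 253, 276 and 182 CPM and in Sirt2-/-/CE at 286, 161, 246, 175 and 250 CPM. Control replicate 3 stood apart from the other Control livers, and low livers of similar level were present in both knockout groups. It had a log2 fold change of -0.06 (SE 0.22, adjusted p = 0.967 by edgeR) for CE against Control and -0.20 (SE 0.22, adjusted p = 0.723) for Sirt2-/- against Control. Its values over the alternatives were -0.205, without Control replicate 3, to 0.01, without Control replicate 4, for CE and -0.42, with limma voom, to -0.06, without Sirt2-/- replicate 11, for Sirt2-/-.

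Cebpb, on chromosome 2 (167688915 to 167690418, forward strand), was at 9.41, 5.31, 7.97, 2.35 and 4.48 CPM in Control and at 5.19, 2.34, 11.3, 2.52 and 2.75 CPM in CE. It was at 6.08, 2.56, 4.48, 2.22 and 1.91 CPM in Sirt2-/- and at 4.34, 4.2, 2.64, 6.44 and 4.74 CPM in Sirt2-/-/CE. All groups overlapped between 2.64 and 6.08 CPM. Its log2 fold change was -0.77 (SE 0.45, 95% interval -1.71 to 0.16, adjusted p = 0.439 by edgeR) for Sirt2-/- against Control. It was -0.30 (SE 0.44, adjusted p = 0.886) for CE against Control and 0.37 (SE 0.45, adjusted p = 0.939) for Sirt2-/-/CE against Sirt2-/-, with an interaction of 0.67 (SE 0.63, adjusted p = 0.836). For CE against Control it was -0.89 without CE replicate 8, -0.06 without Control replicate 1 and 0.04 with the clock score as a covariate. Over the 16 libraries of the higher clock scores the difference of Sirt2-/- from Control was -0.43 (adjusted p = 0.898), and the interaction was -0.04. Over all alternatives the difference of Sirt2-/-/CE from Sirt2-/- ran from -0.158 to 0.679 and the interaction from -0.036 to 1.265. Cebpb shares 312 of its 1504 exonic bases with Tmem189, a gene on the other strand that held 62.1% to 91.2% of the counts of both. The use of strand in counting is not given in the sources used here, so reads from the shared bases cannot be told apart.

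The log2 ratio of Cebpa to Cebpb in CPM was 5.44 ± 1.05 (SD, n = 5) in Control, 5.84 ± 1.07 in CE, 5.98 ± 1.03 in Sirt2-/- and 5.67 ± 0.69 in Sirt2-/-/CE. Its differences between groups had an adjusted p of 0.844 in each of 4 exact permutation tests, and 4 of 5 Sirt2-/- livers lay above the Control mean.

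Onecut1, on chromosome 9 (74861921 to 74891781, forward strand), varied most of the 9 factors. It was at 36.7, 72.9, 31.3, 166.2 and 24.4 CPM in Control and at 76.2, 10.5, 13.3, 40.7 and 8.07 CPM in CE. In Sirt2-/- it was at 5.11, 9.05, 10.5, 94.8 and 46.9 CPM and in Sirt2-/-/CE at 4.47, 8.63, 12.02, 57.6 and 39.5 CPM. All 5 Control livers were above 24 CPM, while each other group had 3 livers between 4.47 and 13.3 CPM and 2 between 39.5 and 94.8 CPM. The highest liver was 37.2 times the lowest. The log2 fold change was -1.16 (SE 0.84, 95% interval -2.91 to 0.60, adjusted p = 0.679 by edgeR) for CE against Control and -0.99 (SE 0.84, 95% interval -2.74 to 0.75, adjusted p = 0.627) for Sirt2-/- against Control. It was -0.44 (SE 0.83, adjusted p = 0.973) for Sirt2-/-/CE against Sirt2-/-, with an interaction of 0.71 (SE 1.18, adjusted p = 0.927). The former turned to 0.28 with the clock score as a covariate, 0.95 with limma voom and 0.96 over the 16 libraries of the higher clock scores, and the interaction ran from 0.03 to 2.32 over all alternatives. Without Control replicate 4 the difference from Control was -0.48 for CE and -0.31 for Sirt2-/-, with adjusted p = 0.877 and 0.907. It was larger without CE replicate 6, at -1.87 for CE, and without Sirt2-/- replicate 14, at -1.89 for Sirt2-/-, and limma voom gave -2.27 for Sirt2-/-.

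The 4 libraries with low clock scores held 40.7, 94.8, 46.9 and 57.6 CPM of Onecut1, each above the mean of its own group in log2 CPM. This was not particular to Onecut1. All 4 were also above their group means for Hnf4a (700.8 to 790.3 CPM) and Foxa2 (22.95 to 43.24 CPM). The other 16 libraries ran from 4.47 to 166.2 CPM of Onecut1, with a median of 12.7 CPM. Over those 16, a choice made after the data were seen, the 3 Sirt2-/- livers (5.11 to 10.5 CPM) lay below all 5 Control livers, and 7.95% of all tested genes also had groups that did not overlap there. With all 5 Sirt2-/- livers the groups overlapped. The same 16 libraries left 0 of the 9 factors without overlap for Sirt2-/-/CE against Sirt2-/- and against CE, where 4.76% and 4.13% of all tested genes were. In the 16 libraries the log2 fold change of Sirt2-/- against Control was -3.02 (SE 0.93, adjusted p = 0.391 by edgeR). With all 20 libraries and the clock score as a covariate it was -3.15 (SE 0.81, 95% interval -4.85 to -1.45, adjusted p = 0.227). That of CE against Control was -2.04 (SE 0.68, adjusted p = 0.285) with the covariate and -1.29 (SE 0.76, adjusted p = 0.53) over the 16 libraries. The part of the time of day at which livers were taken was not tested, as the labels give no time.

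Onecut1 shares 2171 of its 4113 exonic bases with Gm20649, a noncoding gene on the same strand. Gm20649 had 741 counts in Control replicate 5 and 164 in CE replicate 7, and 0 in the other 18 libraries. In Control replicate 5 that was 40.5% of the counts of both genes, so the value of Onecut1 there is uncertain. With the counts of both genes added, this liver was at 40.9 CPM instead of 24.4 CPM. The log2 fold changes of Onecut1 became -1.18 for CE and -1.06 for Sirt2-/- against Control, with adjusted p = 0.658 and 0.582.

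Prox1, a homeodomain factor of hepatocytes that also marks lymphatic endothelium, is on chromosome 1 (190118035 to 190170714, reverse strand). It ranged from 37.0 to 151.2 CPM in Control, with a median of 123.5 CPM, and from 46.5 to 136.7 CPM in CE, with a median of 99.2 CPM. In Sirt2-/- it ranged from 53.6 to 126.6 CPM with a median of 101.3 CPM, and in Sirt2-/-/CE from 45.9 to 136.3 CPM with a median of 57.7 CPM. The ranges of the 4 groups overlapped almost wholly. The log2 fold change was -0.23 (SE 0.40, adjusted p = 0.905 by edgeR) for CE against Control and -0.34 (SE 0.40, adjusted p = 0.75) for Sirt2-/- against Control. Leaving out CE replicate 6 brought the former to -0.06 and leaving out Control replicate 5 to -0.45, and the latter ran from -0.57 to -0.10 over all alternatives. Of 4 lymphatic markers, 3 were tested, and their median log2 fold change for CE against Control was -1.35, with 3 of 3 under an unadjusted p of 0.05 in edgeR, as 10.7% of all tested genes were, and 0 called. For Sirt2-/-/CE against CE, 3 of 3 were higher, with a median of 1.35. Of them, 2 were under an unadjusted p of 0.05 in edgeR, as were 6.09% of all tested genes. Prox1 had -0.418 to -0.017 there over all alternatives. The summed markers were at 6.11 to 28.3 CPM in Control and 4.7 to 15.4 CPM in CE. This sum does not bound how much Prox1 RNA came from lymphatic cells, and their part in the level of Prox1 was not tested. Prox1os, which shares 133 of the 8390 exonic bases of Prox1 on the other strand, held 1.45% to 12.4% of the counts of both.

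**Figure D3:**
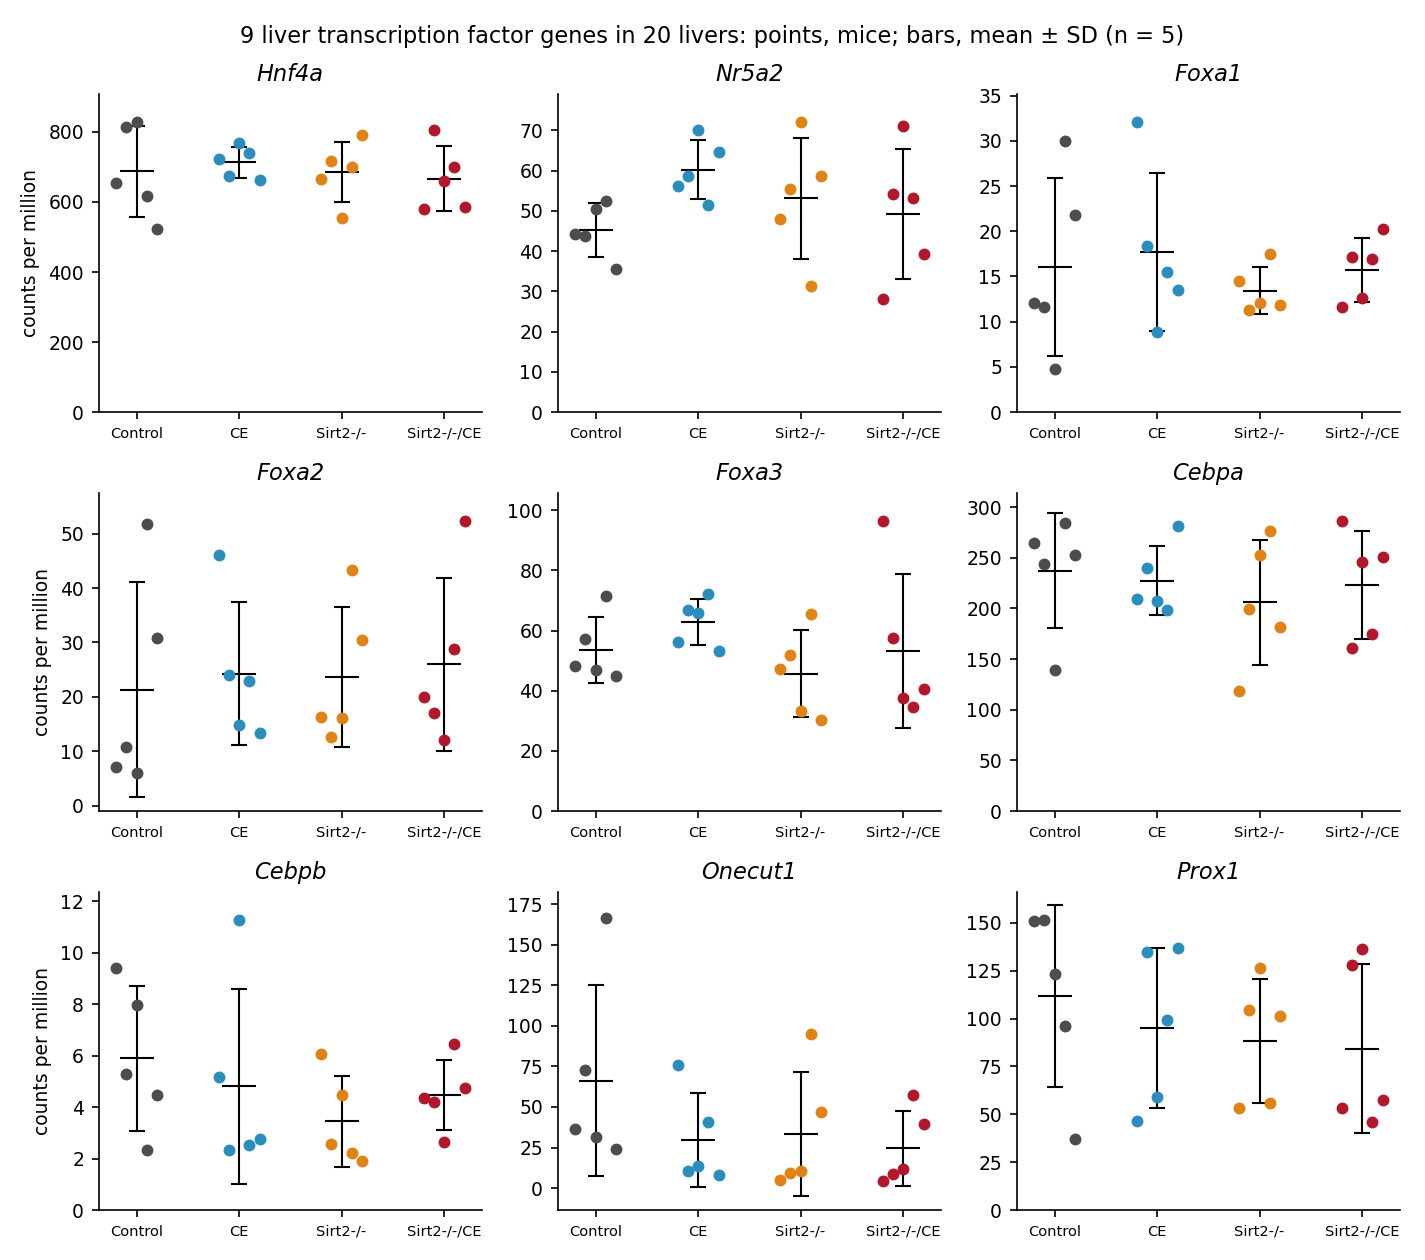
CPM of each factor in every liver (points, in replicate order within a group) with the mean and SD of 5 livers as bars. All 5 Control livers lie above 24 CPM for Onecut1, and groups overlap in every panel.

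Across livers, some factors varied together within groups. Pearson's r was computed on log2 CPM with group means removed, for 36 pairs over 20 livers, with permutation of livers within groups and Benjamini-Hochberg adjustment over the pairs. Foxa1 and Foxa2 gave r = 0.831 (permutation, adjusted p = 0.00216) and Spearman's rho = 0.818 (adjusted p = 0.00792). Without the 2 livers farthest from the median of Foxa1, r was 0.758. By r the pair also passed with scaling by library size only, in log2 FPKM, with the clock score regressed out, with the counts of Onecut1 and Gm20649 added and without each liver in turn. Over the 16 libraries of the higher clock scores it passed by r at 0.865 (permutation, adjusted p = 0.0104) and not by rho at 0.85 (permutation, adjusted p = 0.0536). Foxa3 did not vary with them to a detectable degree, with r = 0.085 to Foxa1 and 0.107 to Foxa2 (permutation, adjusted p = 0.749 for both).

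Foxa2 and Onecut1 gave r = 0.66 (permutation, adjusted p = 0.0383) and rho = 0.453 (adjusted p = 0.342), and r = 0.582 without the 2 extreme livers of Foxa2. That call was lost with the clock score regressed out (r = 0.571, adjusted p = 0.122), over the 16 libraries of the higher clock scores (r = 0.611, permutation, adjusted p = 0.263) and in 11 of 20 fits that each left out 1 liver, where r was 0.608 to 0.668. It held by library size only (r = 0.676, permutation, adjusted p = 0.0286), in log2 FPKM (r = 0.71, permutation, adjusted p = 0.0211) and with the counts of Onecut1 and Gm20649 added (r = 0.718, permutation, adjusted p = 0.00792). Foxa1 and Onecut1 gave r = 0.465 (permutation, adjusted p = 0.138), and r = 0.563 (permutation, adjusted p = 0.047) without Control replicate 5. Over all 20 livers, Foxa1 with Foxa2 and Foxa2 with Onecut1 were the only 2 pairs past the threshold by r, and 7 pairs were under an unadjusted permutation p of 0.05.

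Hnf4a and Cebpa gave r = -0.579 (permutation, adjusted p = 0.138), although rho = -0.692 had an adjusted p of 0.0389, and without Sirt2-/- replicate 11 r was -0.722 (permutation, adjusted p = 0.0337). Foxa2 and Prox1 gave r = -0.583 and Nr5a2 and Prox1 r = 0.544 (permutation, adjusted p = 0.138 for both). Nr5a2 and Foxa3 gave r = -0.618 (permutation, adjusted p = 0.18), which fell in size to -0.226 without Sirt2-/- replicate 14 and Sirt2-/-/CE replicate 16.

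**Figure D4:**
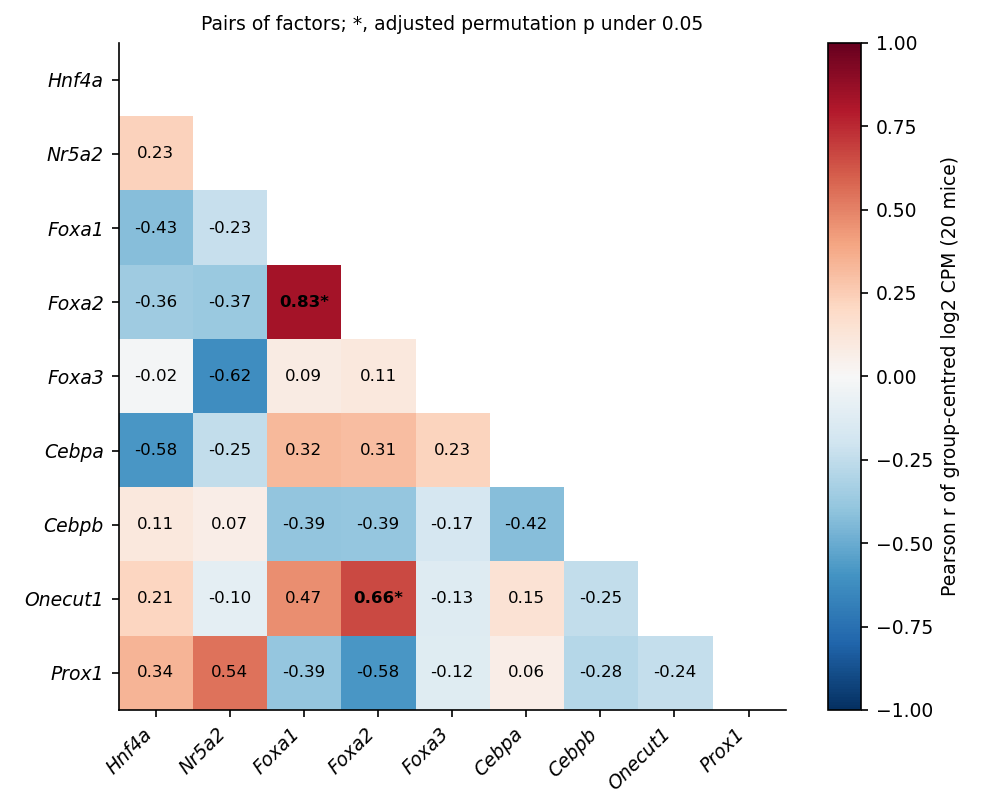
Pearson's r of group-centred log2 CPM over 20 livers for each of 36 pairs, as colour and number. Asterisks mark the pairs with an adjusted permutation p under 0.05, which are Foxa1 with Foxa2 and Foxa2 with Onecut1.

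The relation to the clock score was looked at after the data were seen. As the 4 low libraries form a separate cluster, r was computed only over the other 16, for 9 factors. Cebpb gave r = 0.867 (permutation, adjusted p = 0.0072) and rho = 0.756 (adjusted p = 0.0232), and r = 0.744 without Control replicate 4 and CE replicate 8, the 2 libraries whose group-centred scores were the most extreme. The other 8 factors had adjusted p of 0.401 or more, among them Onecut1 with r = -0.312 (permutation, adjusted p = 0.553). Of the 4 low libraries, 3 lay below the mean of their group for Cebpb, between 1.91 and 2.52 CPM, and Sirt2-/-/CE replicate 19 was at 6.44 CPM.

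**Figure D5:**
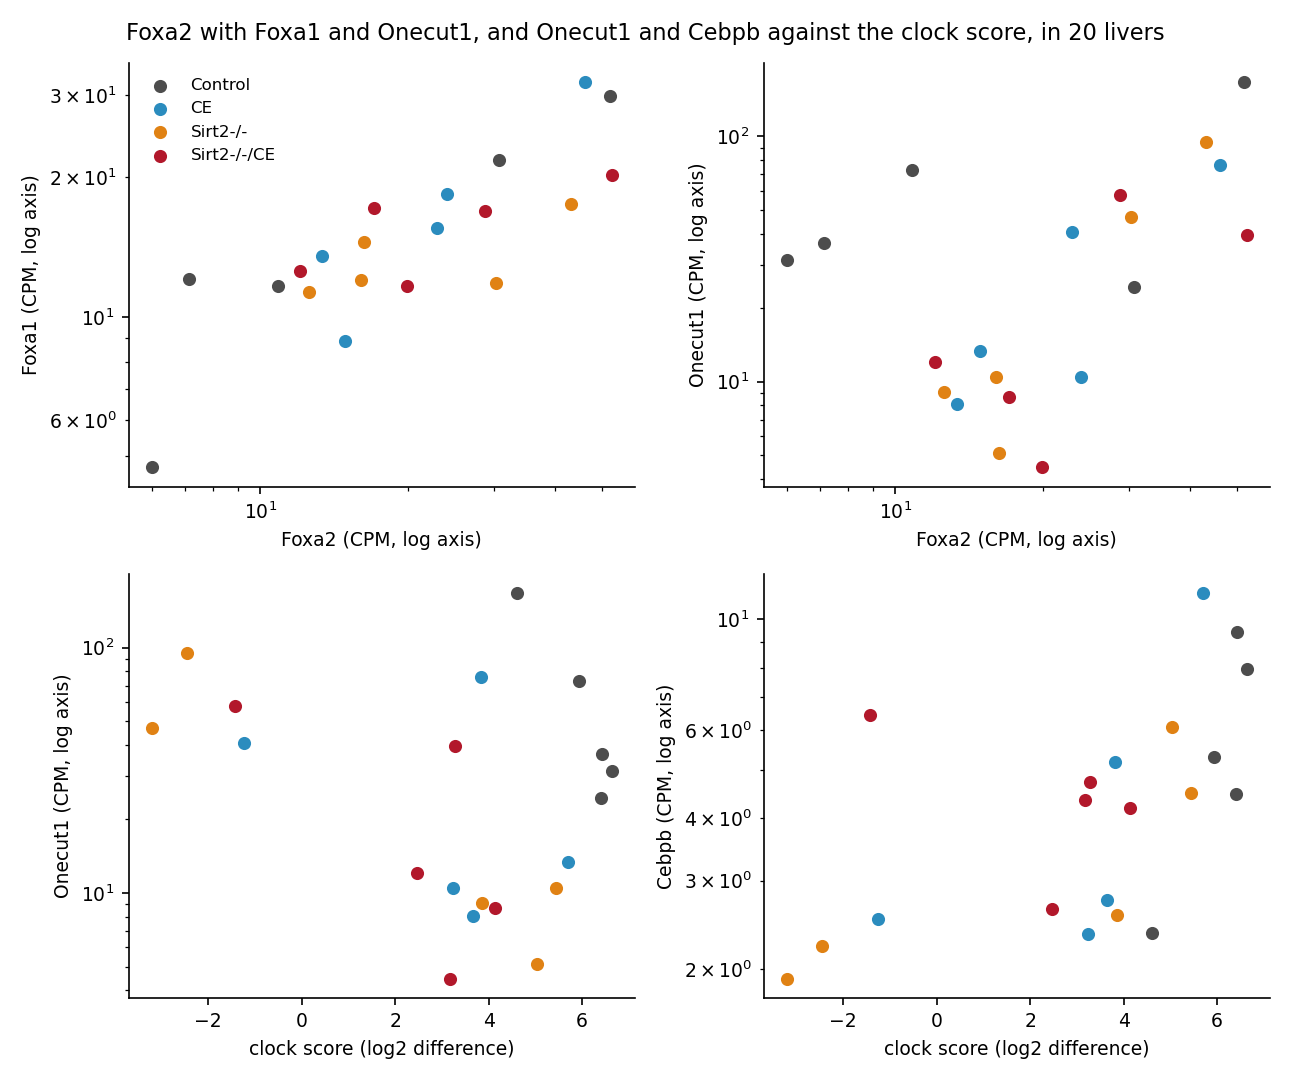
CPM of Foxa1 and Onecut1 against Foxa2 (top) and of Onecut1 and Cebpb against the clock score, a difference of mean log2 CPM (bottom), in 20 livers coloured by group; CPM axes are log axes. Foxa1 rises with Foxa2, and the 4 libraries below a clock score of 0 hold 40.7 to 94.8 CPM of Onecut1.

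The promoter windows of Foxa1, Foxa2 and Onecut1 are shown because these 3 factors formed the pairs that varied together. They run from 250 bases before to 50 bases after a RefSeq transcript start on GRCm38.p6, read on the strand of the gene, and all 9 factors matched a window, with 14 windows among 32851 in all. Capitals mark matches, on either strand, to the forkhead motif letters TGTTTAC, the Onecut motif letters ATTGAT and the E-box CACGTG, which reads alike on both strands. For Foxa2 the window of the most upstream of 3 starts is shown. The places are chr12:57546062-57546361 (reverse strand) for Foxa1, chr2:148046920-148047219 (reverse strand) for Foxa2 and chr9:74861671-74861970 (forward strand) for Onecut1.
Foxa1: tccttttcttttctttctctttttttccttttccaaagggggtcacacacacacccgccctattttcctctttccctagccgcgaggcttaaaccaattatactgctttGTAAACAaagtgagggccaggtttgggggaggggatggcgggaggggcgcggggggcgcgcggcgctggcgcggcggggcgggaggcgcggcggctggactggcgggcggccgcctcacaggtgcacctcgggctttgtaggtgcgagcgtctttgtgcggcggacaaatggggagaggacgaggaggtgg
Foxa2: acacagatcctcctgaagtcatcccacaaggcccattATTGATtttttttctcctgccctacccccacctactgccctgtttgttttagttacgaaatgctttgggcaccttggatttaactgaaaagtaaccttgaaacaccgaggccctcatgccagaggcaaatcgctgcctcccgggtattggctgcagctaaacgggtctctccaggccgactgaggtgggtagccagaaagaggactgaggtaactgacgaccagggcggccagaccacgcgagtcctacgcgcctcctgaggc
Onecut1: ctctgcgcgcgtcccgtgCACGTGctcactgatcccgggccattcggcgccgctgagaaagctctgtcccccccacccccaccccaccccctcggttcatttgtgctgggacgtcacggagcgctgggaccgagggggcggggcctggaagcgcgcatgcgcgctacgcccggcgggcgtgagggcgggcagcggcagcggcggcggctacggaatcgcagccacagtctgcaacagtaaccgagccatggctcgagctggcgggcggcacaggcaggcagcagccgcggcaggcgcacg

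The window of Foxa1 held TGTTTAC once, on its reverse strand, starting 141 bases before the transcript start, and 3.65% of all windows held it. The window of Foxa2 held ATTGAT once, 213 bases before the start, against 7.54% of all windows. The window of Onecut1 held CACGTG once, 232 bases before the start, against 7.15% of all windows. Among the other letters searched, ATTGAC was in a further Foxa2 window (6.27% of all windows) and TGTTTGC in a Prox1 window (5.07%), and ATTGAT was also in a Hnf4a window. TTATGTAA (0.94%), CAAAGTCC (1.42%) and TTGCGCAA (0.18%) were in 0 of the 14 windows. These letters describe the windows only, and binding was not measured. The GC content was 80.7% in the window of Cebpb and 73.0% in that of Onecut1, against a median of 52.7% over all windows.

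For each factor, the tested genes whose mean reached 1 FPKM were ranked by Pearson's r of log2 CPM over the 20 livers, among 10590 genes, as a description with no test. Ccdc6 (r = 0.913) and Cab39 (r = 0.895) were most like Nr5a2. Pim3 (r = 0.901) was among the genes most like Cebpb. Foxa1 and Foxa2 were on each other's short lists (r = 0.815), with Pigh (r = 0.846) ahead of Foxa1 for Foxa2 and Itpa-ps1 (r = 0.764) behind Foxa2 for Foxa1. Hnf4a was followed by Ythdf1 (r = 0.84) and Supt6 (r = 0.82), and Cebpa by Plekhh3 (r = 0.83) and Cldn3 (r = 0.828). Foxa3 was followed by Safb2 (r = 0.813) and Akap8l (r = 0.794), Prox1 by Usp19 (r = 0.825) and Fam160b1 (r = 0.793), and Onecut1 by Tuft1 (r = 0.837) and a predicted new gene (r = 0.807).

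Lists of other liver transcription factors and of genes known as targets of these factors were examined in the same fit. Depending on the comparison, 0% to 0.89% of all tested genes were called. With shares this low, 0 called in a short list does not show that its genes were unchanged. Of 32 other liver transcription factors, 0 were called in any comparison by edgeR, with 4 under an unadjusted p of 0.05 for CE and 3 for Sirt2-/- against Control, where 10.7% and 14.9% of all tested genes were. The nearest was Nr0b2, or SHP, a nuclear receptor without a DNA-binding domain that represses Nr5a2 and Hnf4a, at 5.82 to 20.04 CPM in Control and 19.96 to 66.9 CPM in Sirt2-/- (log2 fold change 1.26, SE 0.35, adjusted p = 0.0811). Nr1h4, the bile acid receptor FXR, had log2 fold changes of -0.41 for CE (adjusted p = 0.41) and -0.40 for Sirt2-/- (adjusted p = 0.284), and Xbp1 had -0.65 for CE (adjusted p = 0.36).

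Among 18 genes listed as targets of Hnf4a, 1 passed the threshold for Sirt2-/- against Control, where 0.89% of all tested genes did, and 0 in each other comparison. That gene was Hgfac, a serine protease that activates hepatocyte growth factor, at 158.3 to 200.4 CPM in Control, 132.7 to 167.2 CPM in CE, 40.8 to 128.5 CPM in Sirt2-/- and 105.1 to 211.3 CPM in Sirt2-/-/CE. Its Control and Sirt2-/- livers did not overlap, and it fell by 1.08 on the log2 scale (SE 0.23, edgeR adjusted p = 0.0382). The fall of Hgfac was smaller and not called with the clock score as a covariate (-0.76, SE 0.21, adjusted p = 0.303) and over the 16 libraries of the higher clock scores (-0.75, SE 0.19, adjusted p = 0.321). The call was also lost without a filter on low counts (-1.09, adjusted p = 0.057), with only the 2 groups in the fit (-1.08, adjusted p = 0.109) and in 8 of 20 fits that each left out 1 liver. Those 8 left out Control replicates 1, 2, 3 and 5, CE replicate 7 and Sirt2-/- replicates 12, 14 and 15, and over the 20 fits the log2 fold change ran from -1.27 to -0.905 with adjusted p from 0.0199 to 0.0968. The call was kept with DESeq2 (adjusted p = 0.00118), limma voom (0.00436) and log2 FPKM in limma (0.0244). It was also kept in edgeR by library size only (adjusted p = 0.0264) and with at least 10 counts in every library (0.0282). Otc, Slc10a1 and F9, also on that list, had log2 fold changes of -0.38 (Sirt2-/- against Control, adjusted p = 0.135), -0.33 (CE, adjusted p = 0.322) and 0.35 (CE, adjusted p = 0.361). None of 9 targets listed for Foxa was called, among them Apoa1 at -0.66 for Sirt2-/- (adjusted p = 0.16), G6pc at -0.88 for CE and -1.10 for Sirt2-/- (adjusted p = 0.632 and 0.373) and Vtn at 0.33 for CE (adjusted p = 0.574). None of 12 listed for C/EBP was called. The acute phase protein gene Orm1 had 0.88 for CE (adjusted p = 0.193), the glycogen synthase gene Gys2 -0.99 for CE and -1.03 for Sirt2-/- (adjusted p = 0.323 and 0.18), and Ddit3 1.15 for Sirt2-/- (adjusted p = 0.146).

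The next lists are read against the same background, where at most 0.89% of all tested genes were called in any comparison. None of 7 targets listed for Onecut1 was called, including Cyp7a1 at -0.65 for Sirt2-/- (adjusted p = 0.683). None of 8 listed for Nr5a2 was called, and 4 were higher and 4 lower for Sirt2-/- against Control. Nr0b2, which is on this list too, had 1.26 there (adjusted p = 0.0811), the lowest p of the list. The sterol exporters had lower values, Abcg5 at -0.83 and Abcg8 at -0.84 for CE (adjusted p = 0.295 and 0.357) and Abcg5 at -0.78 for Sirt2-/- (adjusted p = 0.208). Of 16 cofactors none was called, with Kdm1a at 0.32 for CE and 0.24 for Sirt2-/-, Ppargc1a at 0.94 for CE and Hdac3 at -0.20 for Sirt2-/- (adjusted p = 0.372, 0.39, 0.555 and 0.434). Of 8 hepatoblast genes 6 were tested and 0 were called, with H19 at -2.71 for CE and -2.70 for Sirt2-/- (adjusted p = 0.417 and 0.277) and Cd24a at -0.97 for Sirt2-/- (adjusted p = 0.208). H19 and Igf2 were at low means of 0.208 and 0.0911 FPKM. In Control, H19 had a median of 0.304 CPM and a highest liver of 3.025 CPM. In the lists of 8 early stress and 11 acute phase genes, which C/EBPβ is known to act in, 0 genes were called. The median log2 fold change of the stress list was -0.996 for CE and -0.30 for Sirt2-/- against Control, and that of the acute phase list was 0.29 and -0.53. The summed stress list pointed the other way for Sirt2-/-, with a median of 131.6 CPM (53.2 to 151.9) against 81.7 CPM (75.7 to 353.8) in Control. The acute phase sum also had a higher median in Sirt2-/- (6718 to 16330 CPM) than in Control (7321 to 24760 CPM). Gene by gene, 9 of the 11 acute phase genes were lower in Sirt2-/- than in Control and 2 were higher. Of the lower ones, 5 were under an unadjusted p of 0.05 in edgeR, where 14.9% of all tested genes were. For Sirt2-/-/CE against CE, 11 of 11 were lower, with a median log2 fold change of -1.075. Of these, 7 were under that p, where 6.09% of all tested genes were. For CE against Control, 8 were higher and 3 lower.

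Markers of other liver cells had 0 members called at the adjusted threshold in any comparison, where at most 0.89% of all tested genes were. For Sirt2-/-/CE against CE, 6 of 6 sinusoidal endothelial markers and 4 of 5 Kupffer cell markers had higher values under an unadjusted p of 0.05 in edgeR, a threshold that 6.09% of all tested genes met in either direction. In that comparison the 8 of 9 factors that were lower had log2 fold changes of -0.29 to -0.02. The summed endothelial markers were 30.1 to 171.6 CPM in CE and 180.8 to 304.5 CPM in Sirt2-/-/CE, and the Kupffer markers 69.2 to 310.4 CPM and 233.8 to 329.9 CPM. Stellate cell markers summed to 27.4 to 181.3 CPM in CE and 141.8 to 205.7 CPM in Sirt2-/-/CE, and bile duct markers to 34.5 to 62.1 CPM and 21.5 to 38.4 CPM. For Sirt2-/- against Control, where 7 of 9 factors were lower, 5 of 5 Kupffer and 6 of 6 endothelial markers had higher values. Of these markers, 0 were under an unadjusted p of 0.05 in edgeR, where 14.9% of all tested genes were. Kupffer markers summed to 72.4 to 264.1 CPM (median 158.5) in Control and 188.4 to 323.4 CPM (median 249.5) in Sirt2-/-, and bile duct markers to 36.4 to 81.6 CPM (median 47.2) and 30.4 to 44.2 CPM (median 34.2). For CE against Control, 6 of 6 endothelial markers had lower values. Of them, 3 were under an unadjusted p of 0.05 in edgeR, where 10.7% of all tested genes were. The part of these cells in the levels of the factors was not tested. Exocrine pancreas, which also expresses Foxa2, Nr5a2 and Onecut1, had 5 of 6 markers below 0.1 FPKM, with a sum of at most 8.93 CPM. Neutrophil markers summed to at most 5.27 CPM, and Ly6g was at 0 in all libraries, while the red cell markers summed to 118.6 to 535.5 CPM.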

How the data were processed

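RNA from liver was sequenced on an Illumina NovaSeq instrument after enrichment of mRNA on oligo(dT) beads, with 20 samples in 4 groups taken from the labels. The authors deposited 1 table with whole-number read counts per gene, without normalization, and FPKM values, scaled by the authors to gene length and depth. The build was mm10 per the submitters' processing notes. The aligner, the counter and its use of strand are not given in the sources used here. Of its lines, 9 hold no gene and were left out, and 0 columns were without a sample.

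Counts were filtered with filterByExpr (minimum count 10, total 15) and fitted for all 20 libraries in edgeR 4.0.16 (TMM, quasi-likelihood test, Benjamini-Hochberg adjustment over 15616 genes), under R 4.3.3. Depth of 35499796 to 53917339 counts limits low genes such as Cebpb more than the others. Log2 CPM used a prior count of 2, and log2 FPKM a pseudocount of 1. The threshold was an adjusted p of 0.05. Intervals are 95% intervals of the fit. Correlations used 100000 permutations within groups. The edgeR fit was tested on simulated data.

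Alternatives were DESeq2 1.42.0, limma 3.58.1 (voom with quality weights, or log2 FPKM), scaling by library size, no filter, at least 10 counts in every library, only the 2 groups compared, the clock score as a covariate, and each library left out. After the data were seen, the counts of Onecut1 and Gm20649 were added together, and the 16 libraries of the higher clock scores, above the largest gap in the sorted scores, were fitted alone. The factors and lists were chosen with earlier results of these data known. Named genes are the factors, Sirt2, the 2 genes most like each factor, list genes that were called, the 2 of each list with the lowest p for CE or Sirt2-/- against Control, and genes overlapping a factor. Results for some genes that this rule names are not reported here. Besides the lists of the text, the clock list served the score. Positions are from GENCODE vM21 on GRCm38 and promoters from RefSeq on GRCm38.p6. Figures were drawn with matplotlib 3.10.9.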

Additional observations from a re-analysis of the deposited data

Results flagged for a closer look

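Among 44 sets of 5 values (the CPM of each factor and both ratios in each group), 1 held a liver that stood apart. Cebpa in Control replicate 3 was at 139.7 CPM, and its gap to the nearest other Control liver was 0.785 of the range of the group, above the critical value of 0.71. Chance alone gives about 1 in 20 such sets. The same liver had the lowest Foxa1 and Foxa2 and the highest Hnf4a of all 20.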

How the results depend on the processing

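No paired analysis was possible because the groups share no replicate number. None of the 9 factors was called in any comparison under any alternative, nor without any 1 library, and over 747 recomputed log2 fold changes the lowest adjusted p was 0.0717, for Onecut1 in Sirt2-/- against Control with limma voom (-2.27).

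The number of all genes called moved much more. For CE against Control it was 169 with DESeq2, 540 with limma voom, 0 with only the 2 groups, 2 with the clock score as a covariate, 2 over the 16 libraries of the higher clock scores, and 0 to 68 without single libraries. For Sirt2-/- against Control it was 607 with DESeq2, 906 with limma voom, 329 with log2 FPKM, 419 by library size only, 35 without a filter, 209 with at least 10 counts in every library, 29 with only the 2 groups, 0 with the clock score, 0 over the 16 libraries, and 5 to 375 without single libraries. For Sirt2-/-/CE against Sirt2-/- DESeq2 called 7. For Sirt2-/-/CE against CE it was 31 with DESeq2, 1 by library size only, 0 with only the 2 groups, 1 over the 16 libraries, and 1 to 6 without single libraries. For the interaction it was 41 with DESeq2 and 0 to 2 without single libraries. The cause was not tested.

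Some log2 fold changes of the factors, none of them called, changed sign. With the clock score as a covariate, Foxa2 was at -0.147 for CE and -0.51 for Sirt2-/- against Control and at -0.001 for Sirt2-/-/CE against CE, Cebpb at 0.041 for CE, and Onecut1 at 0.281 for Sirt2-/-/CE against Sirt2-/-. Over the 16 libraries, Foxa2 was at -0.502 for Sirt2-/- against Control, Cebpb at -0.158 and Onecut1 at 0.962 for Sirt2-/-/CE against Sirt2-/-, and the interaction of Cebpb at -0.036. With limma voom, Onecut1 was at 0.946 for Sirt2-/-/CE against Sirt2-/- and Foxa2 at -0.221 for Sirt2-/-/CE against CE. For Sirt2-/- against Control, Hnf4a was at 0.148 by library size only, and log2 FPKM gave 0.157 for Hnf4a and 0.057 for Foxa1.

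Without single libraries, CE against Control ranged from -0.029 to 0.127 for Hnf4a, -0.187 to 0.488 for Foxa1, -0.178 to 0.824 for Foxa2 and -0.205 to 0.011 for Cebpa. Sirt2-/- against Control ranged from -0.094 to 0.064 for Hnf4a, -0.496 to 0.089 for Foxa1 and -0.178 to 0.788 for Foxa2. Onecut1 ranged from -1.04 to 0.451 for Sirt2-/-/CE against Sirt2-/-, and Foxa2 from -0.321 to 0.468 for Sirt2-/-/CE against CE. The log2 ratio of Cebpa to Cebpb ranged from -0.581 to 0.053 for Sirt2-/-/CE against CE, and that of Foxa2 to Foxa3 from -0.434 to 0.224 for Sirt2-/-/CE against Sirt2-/-.

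Of the 36 pairs, 1 was past the threshold with the clock score regressed out, 1 over the 16 libraries, and 1 to 3 without single libraries. With 5 libraries a group and SEs of 0.14 to 0.84 for CE against Control, changes smaller than the intervals given were not detectable.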
